A study of Mus musculus with 9 samples.

Results

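The replication-dependent histone genes encode the H1, H2A, H2B, H3 and H4 proteins that package newly made DNA. They were taken here as all genes whose symbol begins with Hist1h, Hist2h, Hist3h or Hist4h in the deposited gene lists. This gave 67 genes of the 30407 gene IDs present in both experiments: 6 of H1, 18 of H2A, 18 of H2B, 12 of H3 and 13 of H4. Their RNA was measured one cell at a time in the mouse embryonic fibroblast line NIH3T3-CG, in 9 libraries of the 10x Genomics 3′ assay, which counts captured molecules by unique molecular identifiers (UMIs). Cells were treated with SAG, an agonist of Smoothened that turns on the Hedgehog pathway. Experiment 2 with Dox had libraries at 0, 19 and 30 h of SAG, Experiment 2 without Dox had libraries at the same times, and Experiment 1 had libraries at 0, 17 and 30 h. What Dox induces is not given in the labels. Experiment 1 carries no mention of Dox and was treated as having none. No library was labelled as cultured for the later times without SAG, so SAG and time in culture cannot be told apart. Each condition of each experiment was 1 library.

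Barcodes with at least 5000 UMIs and at most 10% of UMIs from mitochondrial genes were kept as cells. These were 1362 to 2046 cells in Experiment 2 with Dox, 2159 to 6520 in Experiment 2 without Dox and 571 to 933 in Experiment 1, holding 41379531 to 82537987, 84920077 to 105444824 and 19407468 to 29122942 UMIs. No pair of libraries shared more than 0.513% of the cell barcodes of the smaller one. The 19 h library without Dox was shallow, with a median of 8025 UMIs per cell against 28335 to 48188 in the other libraries of Experiment 2. The 0 h library of Experiment 2 without Dox had the lowest scaling factor by the trimmed mean of M values (TMM), 0.694, against 0.814 to 1.19 in the others. Fibroblast markers summed to 10964 to 11929 CPM with Dox, 9128 to 9780 CPM without Dox and 6338 to 7204 CPM in Experiment 1, where CPM is counts per 1000000 UMIs after TMM scaling. The epithelial marker Epcam was at 0 in 8 of 9 libraries, and the endothelial marker Pecam1 and the leukocyte marker Ptprc stayed below 0.5 CPM in all 9. The 3 immune markers summed to 0.75 to 1.09 CPM with Dox, 1.54 to 2.54 CPM without Dox in Experiment 2 and 9.79 to 12.5 CPM in Experiment 1. Nearly all of this was Cd68, with 9.79, 10.6 and 12.5 CPM at 0, 17 and 30 h in Experiment 1, while Cd3e was at 0 in all 9 libraries. Cells with under 1% mitochondrial UMIs were 18.2% and 17.9% at 19 and 30 h with Dox and 19.7% at 30 h without Dox, against at most 1.41% in the other 6 libraries. The part of these differences in the results was not tested.

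Pairs of H3 and H4, and of H2A and H2B, form the core around which DNA is wrapped, and H1 binds the linker DNA between cores. Transcription of these genes is coupled to DNA synthesis, and their mRNAs are degraded when synthesis ends. Most of these mRNAs end not in a poly(A) tail but just behind a short stem-loop, to which the stem-loop binding protein SLBP binds. Some histone genes also give polyadenylated transcripts, which are known to persist in cells that do not divide. Reverse transcription in the assay starts from oligo(dT), so an RNA without a tail is captured poorly or through an internal run of A.

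The genes lie in clusters: 54 on chromosome 13, 10 on chromosome 3, 2 on chromosome 11 and 1 on chromosome 6 (GENCODE vM21 on GRCm38). Of the 67, 63 are annotated with a single exon. The stem-loop, searched on the sense strand as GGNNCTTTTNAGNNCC, was present in the annotated transcripts of 44 of the 67 members and in 0.0875% of all 141767 annotated mouse transcripts. In 22 members the annotated transcript ended within 100 bases after the stem-loop, and in 22 it ran on for more than 100 bases. In the other 23 these letters were not in the annotated transcript. A poly(A) signal (AATAAA or ATTAAA) followed the stem-loop in 15 of the 22 long transcripts and in 1 of the 22 short ones. The stem-loops of 6 members are shown because these members differ in how they behaved below; capitals mark the stem-loop, and the sequences run 5′ to 3′ on the transcribed strand.
Hist1h2ap, chr13:21833026-21833050, minus strand, transcript end 3 bases after the stem-loop: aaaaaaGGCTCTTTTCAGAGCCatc
Hist1h3b, chr13:23752814-23752841, plus strand, end 51 bases after it: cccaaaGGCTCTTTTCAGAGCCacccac
Hist1h4h, chr13:23531452-23531479, plus strand, end 46 bases after it: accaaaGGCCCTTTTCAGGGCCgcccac
Hist1h1e, chr13:23621776-23621803, minus strand, end 1153 bases after it: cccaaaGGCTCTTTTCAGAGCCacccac
Hist1h1c, chr13:23739506-23739533, plus strand, end 840 bases after it: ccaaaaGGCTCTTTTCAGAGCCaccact
Hist3h2a, chr11:58955166-58955193, plus strand, end 1643 bases after it: accaaaGGCTCTTTTCAGAGCCacccac
The stem-loops of Hist1h2ap, Hist1h3b, Hist1h1e, Hist1h1c and Hist3h2a were letter for letter the same, and that of Hist1h4h differed from them.

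The most abundant member, the H2A gene Hist1h2ap, carried a run of 12 A directly before its stem-loop. The next H2A gene, Hist1h2ae, had a run of 8 A shortly before it. The windows below mark these runs in capitals.
Hist1h2ap, chr13:21833036-21833065, minus strand: cccgaaaagAAAAAAAAAAAAggctctttt
Hist1h2ae, chr13:23570675-23570704, minus strand: taatctcgtAAAAAAAAcaaaggctctttt
Hist1h2ac, chr13:23682648-23682677, minus strand: ccctaggagAAAAAAAAAAAAAAAgttcta
The run of Hist1h2ac lay elsewhere, behind its stem-loop and 859 bases past its coding end, against 29 in Hist1h2ap and 23 in Hist1h2ae. Hist1h2ac, with this run of 15 A, averaged 1.07 CPM over the 9 libraries, while Hist1h2ap averaged 168 CPM and Hist1h2ae 46.3 CPM. Because the runs differ in place, these levels do not compare like with like, and the part of the runs was not tested. Hist1h2ao carried the same run of 12 A, also 29 bases past its coding end, and averaged 0.0223 CPM. It shared 93.5% of its windows of 50 bases with Hist1h2ap, so the split of reads between these 2 genes is uncertain (below).

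Promoters of members were compared with those of all genes, in windows from 250 bases before to 50 after the start (RefSeq, GRCm38.p6; 62 of 67 members matched), with each motif searched on both strands. CCAAT was in 85.5% of the 62 member promoters and in 37.9% of 27025 promoters of all genes, and TATAAA in 56.5% and 14.2%. The octamer ATTTGCAT was in 7 of 18 H2A and 6 of 16 H2B promoters, in none of the 28 others, and in 1.75% of all promoters. The H1 box AAACACA was in 5 of 6 H1 promoters, 2 of 18 H2A, 2 of 16 H2B and in no H3 or H4 promoter, against 7.14% of all promoters. The motifs do not overlap each other in the windows printed here. Promoters of an H1 and an H2A member that were over 10-fold higher in cells with many replication UMIs (below) are given, with the motifs in capitals.
Hist1h1b, H1, chr13:21780576-21780875, minus strand: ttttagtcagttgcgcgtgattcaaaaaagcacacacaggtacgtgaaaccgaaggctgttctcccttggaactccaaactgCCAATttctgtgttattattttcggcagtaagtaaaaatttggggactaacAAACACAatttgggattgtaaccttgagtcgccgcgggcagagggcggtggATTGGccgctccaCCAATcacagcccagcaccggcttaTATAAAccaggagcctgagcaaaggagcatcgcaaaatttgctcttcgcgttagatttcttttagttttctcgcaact
Hist1h2ab, H2A, chr13:23750838-23751137, plus strand: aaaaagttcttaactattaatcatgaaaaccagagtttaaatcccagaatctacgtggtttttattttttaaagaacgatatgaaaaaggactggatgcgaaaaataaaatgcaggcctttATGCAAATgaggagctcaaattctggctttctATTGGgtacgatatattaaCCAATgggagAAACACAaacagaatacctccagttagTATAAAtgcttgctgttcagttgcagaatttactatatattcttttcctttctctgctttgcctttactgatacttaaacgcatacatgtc

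Many members are near copies of each other. Over windows of 50 bases, 33 members shared at least 50% of their transcript with another gene, and 3 (Hist2h2aa2, Hist2h3c1 and Hist1h2bq) shared all of it. Only 4, among them Hist1h1b and Hist1h1a, shared none. Hist1h2ap shared 93.1% of its windows with Hist1h2ao, and its 96556 UMIs over all libraries stood against 13 for Hist1h2ao. Hist2h2aa1 shared 89.4% with the annotated gene Gm20634 and had 15564 UMIs, while its copy Hist2h2aa2 had 0. How the counting assigned reads that fit several genes is not given in the sources used here, so the split between such copies is uncertain, and so are the levels of Hist1h2ap, Hist2h2aa1, Hist1h2br and Hist2h3c1 as single genes.

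Levels spanned a wide range. In all, 331535 UMIs of the members were counted, 46.8% of them from Hist1h2ap and Hist1h1e and 84.9% from the 10 members with the most UMIs. Averaged over the 9 libraries, 9 members reached 10 CPM, 27 lay between 1 and 10 CPM, 25 lay below 1 CPM, and 6 (Hist2h2aa2, Hist1h2bq, Hist1h4m, Hist1h1t, Hist1h2ba and Hist1h2aa) had no UMI in any library. For these 6, 3 counts as the upper limit that a count of 0 allows come to 0.0288 to 0.14 CPM per library, for counting error only. Hist1h1t, Hist1h2ba and Hist1h2aa are known as testis histone genes. UMIs are counted once per captured 3′ end, so CPM was not divided by length, but levels of different members also depend on how well each is captured.

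The summed level of all 67 members depended most on the experiment and, within Experiment 2, on SAG time. It was 1315, 419 and 318 CPM at 0, 19 and 30 h in Experiment 2 with Dox, and 1755, 771 and 336 CPM in Experiment 2 without Dox. In Experiment 1 it was 91.5, 134 and 120 CPM at 0, 17 and 30 h. Both arms of Experiment 2 thus fell at each step, and all 6 of their libraries lay above all 3 of Experiment 1. The 95% Poisson intervals, which cover counting error only, were 1303 to 1326 CPM at 0 h with Dox, 1744 to 1765 CPM at 0 h without Dox and 88.4 to 94.8 CPM at 0 h in Experiment 1. Fewer cells making histone mRNA and less of it per cell cannot be told apart in these sums. Hist1h2ap alone gave 26.8% to 30.1% of the histone UMIs with Dox, 19.7% to 40.6% without Dox in Experiment 2, and 8.44% to 11.7% in Experiment 1.

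**Figure D1:**
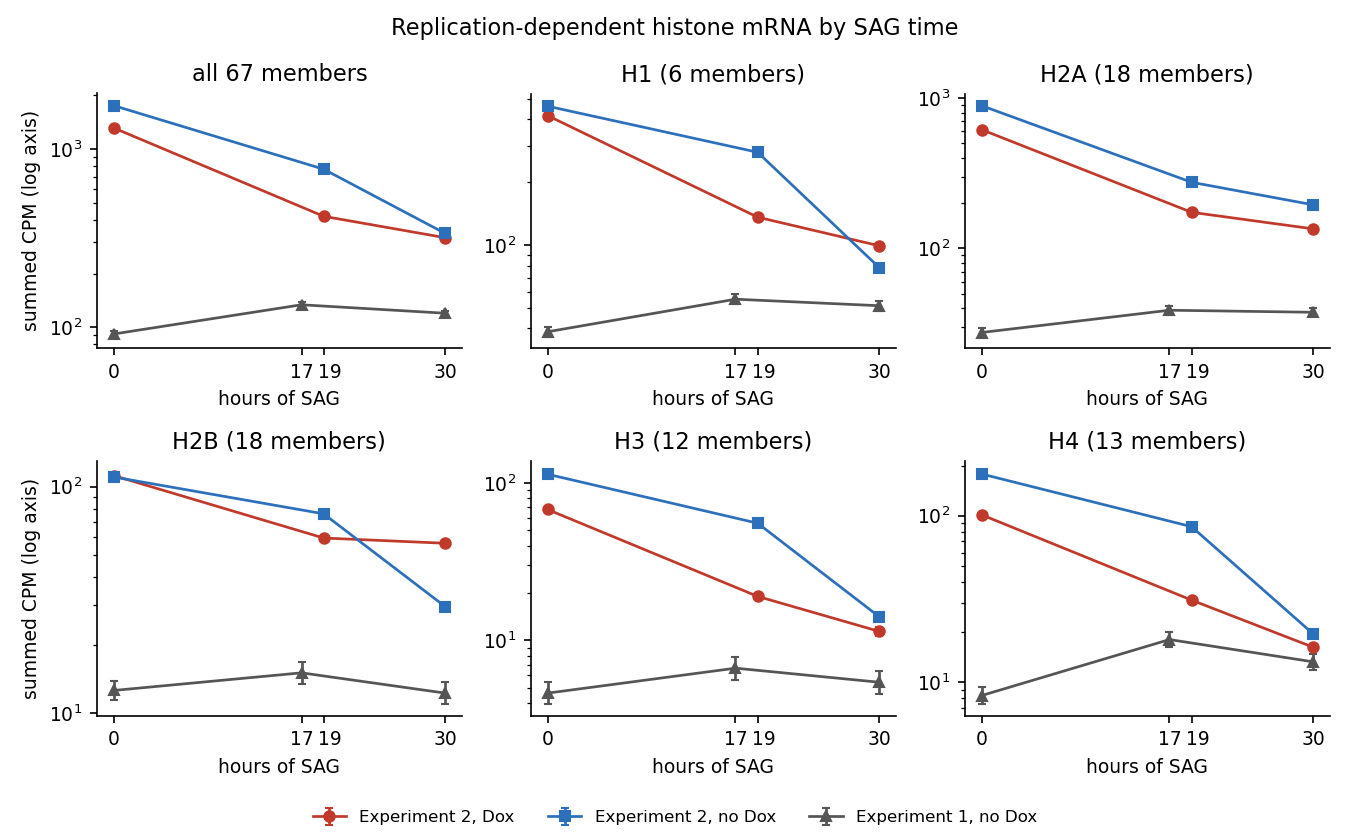
Summed CPM of the members (log axis) against hours of SAG, for all members and per histone class; each point is 1 library, with 95% Poisson intervals for counting error. Experiment 2 with Dox (red circles) and without Dox (blue squares) falls from 0 to 30 h in every class, while Experiment 1 (grey triangles) lies lower, at 91.5 to 134 CPM in all.

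The classes followed the same course in Experiment 2, with H4 and H3 falling most and H2B least. At 30 h against 0 h the H4 sum was 16.2 against 101.2 CPM with Dox and 19.5 against 178 CPM without Dox. The H3 sum was 11.4 against 67.9 CPM with Dox and 14.1 against 114 CPM without Dox. The H2B sum was 56.2 against 112 CPM with Dox and 29.5 against 110 CPM without Dox, and most of the H2B sum at 30 h came from 1 gene, Hist1h2bc, at 48.3 CPM with Dox and 19.9 CPM without Dox. In Experiment 1 the same 30 h to 0 h comparison gave 13.2 against 8.29 CPM for H4, 5.41 against 4.61 CPM for H3 and 12.2 against 12.5 CPM for H2B.

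In Experiment 2, where both arms moved alike, 30 h was compared with 0 h over the 6 libraries, with Dox as a term. This fit was added after the data were seen, and it leaves out Experiment 1, where the course ran the other way (below). Its libraries were chosen with the fall known, so its counts describe the fall and are no independent support for it. The planned fit over both experiments called 10 members (below). Of 67 members 56 had enough counts to be tested. Of these, 51 fell and none rose at an adjusted p under 0.05 in edgeR's quasi-likelihood test, against a background of 23% of 14162 genes called lower, 24.3% called higher and 47.3% in all. The median log2 change was -2.51 for the members and 0.01 for all genes. The 5 members not called were Hist1h1c, Hist3h2a, Hist2h3c1, Hist2h3c2 and Hist2h2be. Without Dox as a term, 3 members were called, and leaving out each library in turn gave 45 to 53. At 19 h against 0 h in the same fit 47 members fell and 1, Hist1h1c, rose, against 10.2% and 9.72% of all genes (19.9% in all), with a median of -1.32; without the Dox term no member was called, with DESeq2 34 were, and without the 19 h library with Dox 29 were. At unadjusted p under 0.05, 53 members passed at 30 h and 49 at 19 h, beside 7605 and 4580 of 14162 genes. Without the Dox term 58 and 1 of all genes were called at 30 h and 19 h, and with DESeq2 1798 were at 19 h.

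Among linker histones, Hist1h1e and Hist1h1b fell at 30 h and Hist1h1c did not pass the test. Hist1h1e had 283, 69.3 and 39.6 CPM at 0, 19 and 30 h with Dox, 309, 165 and 37.9 CPM without Dox, and 11.6, 20.3 and 21.4 CPM in Experiment 1. Its log2 change at 30 h in Experiment 2 was -2.92 ± 0.20 (SE; edgeR adjusted p = 6.6e-17). Hist1h1b had 82.1, 19.3 and 11.05 CPM with Dox, 107.5, 63.5 and 11.6 CPM without Dox, and 5.41, 10.5 and 9.78 CPM in Experiment 1. Both genes were several times lower at 30 h than at 0 h in each arm of Experiment 2 and higher at 30 h than at 0 h in Experiment 1. Hist1h1c, a linker histone gene with a long annotated 3′ end, had 31.98, 39.3 and 42.4 CPM with Dox, 20.3, 29.1 and 23.0 CPM without Dox, and 17.8, 19.0 and 14.3 CPM in Experiment 1. It was the linker histone with the flattest course, and its change at 30 h in Experiment 2 was 0.30 ± 0.14 (SE; edgeR adjusted p = 0.078). In Experiment 1 at 0 h it was the most abundant of all 67 members.

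Among H2A genes, Hist1h2ap had 395, 112 and 91.7 CPM at 0, 19 and 30 h with Dox, 587, 152 and 136 CPM without Dox, and 7.73, 14.1 and 14.1 CPM in Experiment 1. Most of its fall in Experiment 2 had occurred by 19 h, with log2 changes of -1.89 ± 0.17 at 19 h and -2.11 ± 0.17 at 30 h (SE; edgeR adjusted p = 2.3e-12 and 1.8e-14). Hist1h2ae had 100.5, 19.7 and 11.1 CPM with Dox, 180 (0 h), 62.0 (19 h) and 23.7 CPM (30 h) without Dox, and 3.91, 8.28 and 7.19 CPM in Experiment 1. Hist2h2aa1 had 81.2, 21.99 and 15.0 CPM with Dox, 71.2, 30.3 and 20.3 CPM without Dox, and 1.62, 2.05 and 2.78 CPM in Experiment 1. All 3 fell between 0 and 19 h in both arms of Experiment 2. Hist3h2a, on chromosome 11, had 9.47, 10.3 and 11.2 CPM with Dox, 7.54, 8.55 and 6.30 CPM without Dox, and 11.02, 9.53 and 9.05 CPM in Experiment 1, a range of less than 2-fold over all 9 libraries.

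Among H2B genes, Hist1h2bc stood apart. It had 71.8, 46.5 and 48.3 CPM at 0, 19 and 30 h with Dox, 48.5, 39.5 and 19.9 CPM without Dox, and 8.05, 8.04 and 6.42 CPM in Experiment 1. Its fall at 30 h in Experiment 2, -0.90 ± 0.16 on the log2 scale (SE; edgeR adjusted p = 1.2e-05), was smaller than the median of the members. Hist2h2bb had 9.87, 4.65 and 2.38 CPM with Dox, 17.8, 12.9 and 3.07 CPM without Dox, and 1.56, 2.37 and 2.24 CPM in Experiment 1. Hist1h2br had 7.59, 1.31 and 0.65 CPM with Dox, 9.11, 2.27 and 0.884 CPM without Dox, and 0.353, 0.698 and 0.348 CPM in Experiment 1.

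The H3 gene Hist1h3f and the H4 gene Hist1h4h had the deepest falls of the 15 members described by level. Hist1h3e had 21.4, 4.86 and 1.92 CPM at 0, 19 and 30 h with Dox, 36.0, 17.6 and 2.94 CPM without Dox, and 0.647, 1.02 and 0.889 CPM in Experiment 1. Hist1h3f had 15.5, 2.71 and 0.863 CPM with Dox, 28.6, 11.4 and 2.14 CPM without Dox, and 0.176, 0.419 and 0.348 CPM in Experiment 1, a change of -3.97 ± 0.19 at 30 h in Experiment 2 (SE; edgeR adjusted p = 1.4e-22). Hist1h3c fell less, with 8.50, 3.65 and 2.30 CPM with Dox, 13.1, 11.8 and 3.31 CPM without Dox, and 1.44, 0.93 and 1.20 CPM in Experiment 1. The H4 gene Hist1h4h had 48.9, 6.998 and 3.33 CPM with Dox, 71.2, 20.5 and 3.64 CPM without Dox, and 0.823, 2.56 and 1.47 CPM in Experiment 1. Its change at 30 h in Experiment 2 was -4.08 ± 0.19 (SE; edgeR adjusted p = 5.1e-23). Hist1h4d had 35.2, 16.9 and 7.34 CPM with Dox, 79.4, 54.0 and 11.2 CPM without Dox, and 2.91, 6.32 and 5.45 CPM in Experiment 1. Hist1h4i had 7.96, 3.86 and 3.06 CPM with Dox, 9.86, 4.72 and 2.03 CPM without Dox, and 1.41, 2.79 and 1.70 CPM in Experiment 1. In each of these 6 genes both 30 h libraries of Experiment 2 lay below both 0 h libraries. The share of all genes with this order is not given here.

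**Figure D2:**
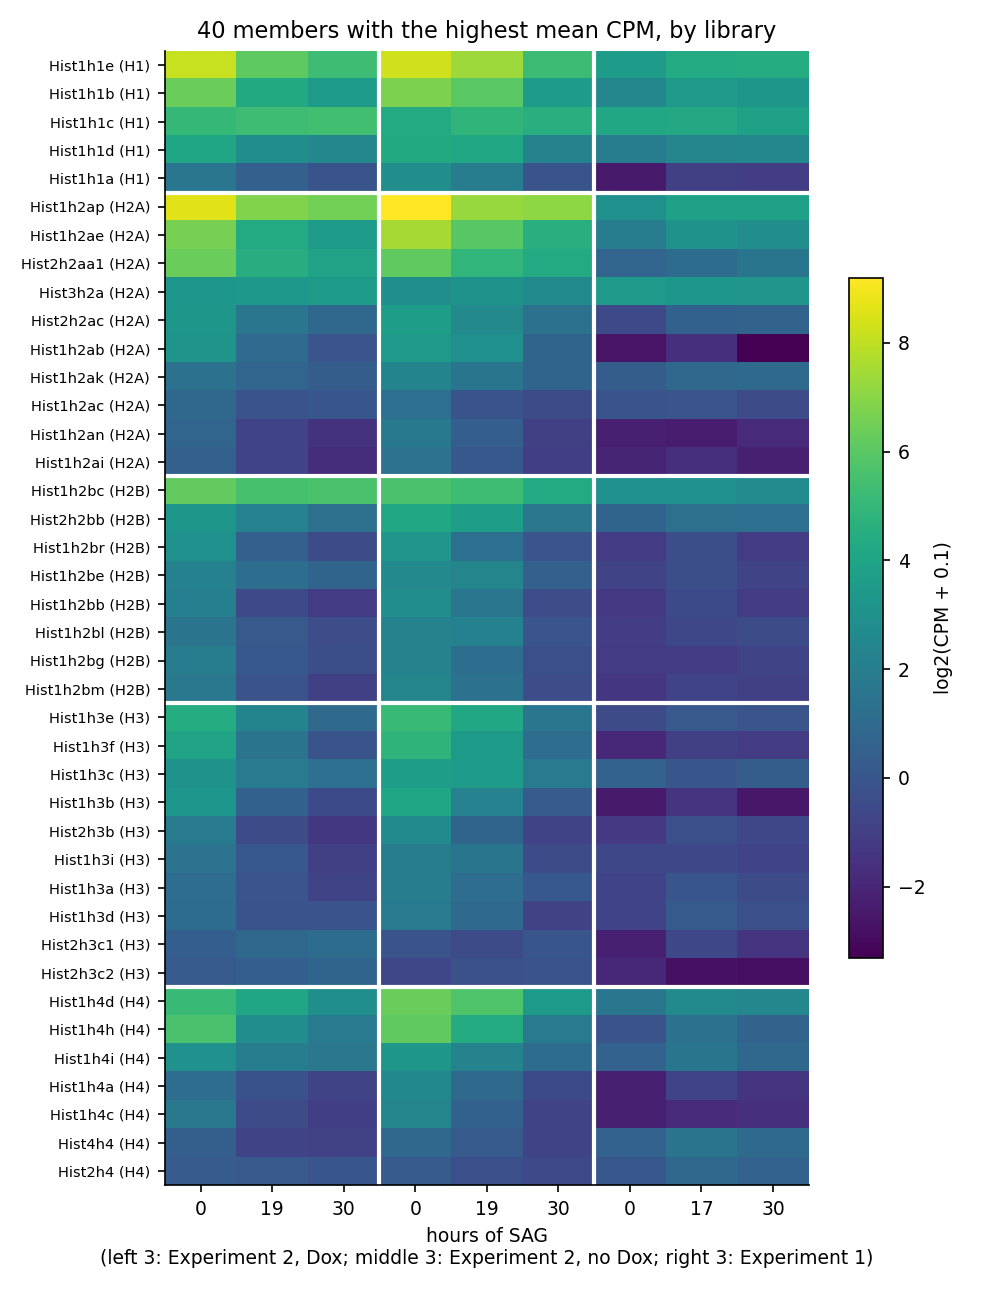
Level of the 40 members with the highest mean CPM in each library, as log2(CPM + 0.1), grouped by histone class and ordered by mean CPM within a class. Most rows darken from 0 to 30 h of SAG in both arms of Experiment 2 and are darkest in Experiment 1; Hist1h1c and Hist3h2a differ little between the libraries.

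The course in Experiment 1 ran the other way. Of members with at least 10 UMIs in the 2 libraries compared, 5 were higher and 48 lower at 30 h than at 0 h in Experiment 2 with Dox, 4 higher and 54 lower without Dox, and 31 higher and 7 lower in Experiment 1. The median log2 differences were -2.35, -2.50 and 0.57. At the earlier time, 5 were higher and 49 lower at 19 h with Dox, 4 higher and 53 lower at 19 h without Dox, and 35 higher and 4 lower at 17 h in Experiment 1. These are differences of single libraries and were not tested, and the matching shares of all genes are not given here.

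**Figure D3:**
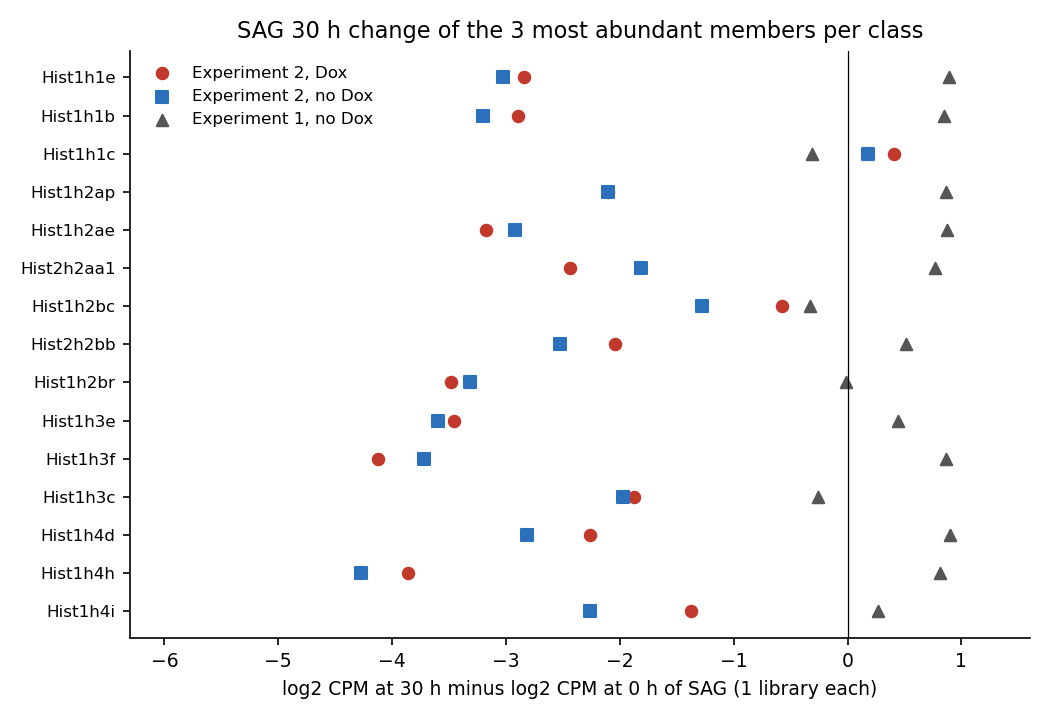
Log2 CPM at 30 h minus log2 CPM at 0 h of SAG for the 3 most abundant members per class, 1 library at each time, in Experiment 2 with Dox (red circles), Experiment 2 without Dox (blue squares) and Experiment 1 (grey triangles). In Experiment 2 all but Hist1h1c lie below 0, down to -4.28 for Hist1h4h without Dox, while Experiment 1 lies between -0.33 and 0.90.

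With both experiments in 1 fit (condition and experiment as terms, all 9 libraries, 57 members tested), 10 members fell and none rose at 30 h against 0 h without Dox, against 0.307% of 14354 genes called lower, 0.139% called higher and 0.446% in all. The 10 were Hist1h3b, Hist1h2ab, Hist1h3f, Hist2h2ab, Hist1h2br, Hist1h2bb, Hist1h3e, Hist1h4h, Hist1h4c and Hist1h2af. The strongest by p was the H3 gene Hist1h3b, with 0.605 against 9.60 CPM at 30 and 0 h in Experiment 2 with Dox, 1.13 against 16.4 CPM in Experiment 2 without Dox and 0.0773 against 0.0882 CPM (2 against 3 UMIs) in Experiment 1, a log2 change of -3.52 ± 0.46 (SE; edgeR adjusted p = 5.8e-05). The median over the members tested was -1.78, and 45 passed at unadjusted p under 0.05, beside 1483 of 14354 genes. These calls rest on Experiment 2: without its 0 h or its 30 h library without Dox no member was called, and the sign of Hist1h4h turned without the first (0.21) and that of Hist1h4c without either (0.20 and 0.17). Leaving out the 0 h or the 30 h library of Experiment 1 gave 48 or 35 called members. The fit without the experiment as a block called 0 members and 0 of all genes, so that 0 is not particular to the members. DESeq2 called 1 member and 12 of all genes.

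At 17 to 19 h against 0 h no member was called by edgeR or DESeq2, against 0.111% of all genes (0.0557% higher and 0.0557% lower). At unadjusted p under 0.05, 9 members and 383 of 14354 genes passed, and the median of the members was -0.39. Without the 0 h library of Experiment 1, 23 members were called lower, and without the 0 h library of Experiment 2 without Dox 5 were called higher (Hist1h1b, Hist1h1e, Hist1h2ae, Hist1h4d and Hist1h4h). From 17 to 19 h to 30 h, Hist1h2ab alone was called lower, by -2.47 ± 0.42 (SE; edgeR adjusted p = 0.022), against 0.00697% of all genes; it was at 0 UMIs at 30 h in Experiment 1. That call was lost without the 17 h library of Experiment 1 and without the 19 h or the 30 h library of Experiment 2 without Dox, and 22, 7 and 20 members were called without the 0 h library of Experiment 1, its 30 h library or the 0 h library of Experiment 2 without Dox. No member was called for a different 30 h response with and without Dox (0% of all genes, 4 members at unadjusted p under 0.05, 0 by DESeq2), but 15 were called lower without the 0 h library of Experiment 2 without Dox.

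Between experiments, 44 members were higher and 1, Hist4h4, was lower in Experiment 2 than in Experiment 1 without Dox, of 54 tested, against 20.6% and 19.9% of 13015 genes, 40.5% in all (6 libraries, SAG time and experiment as terms). The median log2 difference was 2.55. Hist1h2ab differed most, with 10.8, 7.60 and 1.55 CPM in Experiment 2 and 0.0588, 0.233 and 0 CPM in Experiment 1 at the 3 times. Of 56 members with at least 50 UMIs in all, 40 had every Experiment 2 library without Dox above every Experiment 1 library. The share of all genes separated in this way is not given here, so this count has no background to be set against. The gap narrowed with time: the sum of all members was 19.2-fold higher in Experiment 2 at 0 h, 5.77-fold at 17 to 19 h and 2.81-fold at 30 h (11.4, 4.24 and 2.51-fold by total UMIs). Hist3h2a, Hist2h4 and Hist2h2be were among the 9 members not called. Hist2h4 had 1.12, 0.738 and 0.577 CPM in Experiment 2 without Dox and 0.94, 1.72 and 1.43 CPM in Experiment 1. The experiments also differed in the software version of the counting and in the gene list used for it (31054 features in Experiment 1 and 32286 in Experiment 2). Experiment, version and gene list cannot be told apart.

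With Dox, members moved in both directions. Over the 6 libraries of Experiment 2 (SAG time and Dox as terms, 56 members tested), 44 were lower and 5 higher, against 18.4% and 18.6% of 14162 genes, 37% in all, and the median log2 change was -0.93. The 5 higher members were Hist1h2bc, Hist1h1c, Hist3h2a, Hist2h3c1 and Hist2h3c2, and each of them was higher with Dox at 0, 19 and 30 h. Hist2h3c1, an H3 gene, had 1.24, 1.70 and 2.04 CPM with Dox against 0.832, 0.621 and 0.923 CPM without, a change of 1.10 ± 0.20 (SE; edgeR adjusted p = 2e-05). Hist1h1c changed by 0.66 ± 0.12 and Hist1h2bc by 0.69 ± 0.13 (SE; edgeR adjusted p = 1.3e-05 and 5.6e-05). Of the members with at least 50 UMIs in Experiment 2, 39 of 55 were lower with Dox at all 3 times, among them Hist1h2ae (-1.20 ± 0.13, SE; edgeR adjusted p = 4.0e-10), Hist1h3f (-1.41 ± 0.15, adjusted p = 5.7e-11) and Hist1h4d (-1.17 ± 0.13, adjusted p = 6.1e-10). The share of all genes lower at all 3 times is not given here.

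The ratio of the sums with Dox to those without was 0.749 at 0 h, 0.544 at 19 h and 0.946 at 30 h, each from single libraries and not tested between times. The sum over all members was 1315 with Dox against 1755 CPM without at 0 h, 419 against 771 CPM at 19 h and 318 against 336 CPM at 30 h. Without SAG time as a term no member was called, beside 177 of all genes. Leaving out each library gave 36 to 50 called members. These values depend on the scaling: by total UMIs in place of TMM, the median of all genes moved to 0.41 for Dox, -0.47 for Experiment 2 over 1 and 0.46 for 30 h over 0 h in Experiment 2. With that scaling 28 members were lower and 7 higher with Dox, with a median of -0.52, and the sum at 30 h was 1.13-fold that without Dox where TMM gave 0.946-fold. Of all genes, 6981 were then higher and 495 lower with Dox, where TMM gave 2638 and 2601. For SAG at 30 h in Experiment 2, 49 members were lower by total UMIs and 3 higher, beside 1189 and 6561 of all genes, where TMM gave 3257 and 3443. At 19 h, 36 were lower and 1 higher, beside 485 and 4201 of all genes, where TMM gave 1442 and 1376. For Experiment 2 over 1, 42 were higher and 3 lower, beside 1206 and 4496 of all genes, where TMM gave 2677 and 2593.

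Per cell, histone UMIs were spread unevenly: the 10% of cells with the most held 41.8% to 48.9% of them with Dox, 49.0% to 56.8% without Dox in Experiment 2 and 43.0% to 46.7% in Experiment 1, after the thinning described next. Cells with at least 10000 UMIs were thinned to 10000 UMIs each, which left out 38 to 111 cells per library with Dox, 112 to 3910 in Experiment 2 without Dox and 16 to 28 in Experiment 1; the 19 h library without Dox lost 3910 of 6520. The mean was 9.40, 4.46 and 3.17 histone UMIs per cell at 0, 19 and 30 h with Dox, 10.0 (0 h), 4.97 (19 h) and 2.74 (30 h) without Dox, and 1.02, 1.31 and 1.28 in Experiment 1. The highest cell had 337 histone UMIs with Dox (0 h), 233 without Dox (0 h) and 17 in Experiment 1 (17 h). Cells with 10 or more histone UMIs were 18.7%, 5.32% and 2.29% of cells with Dox, 17.0%, 8.08% and 2.93% without Dox, and 0.872%, 0.921% and 1.07% in Experiment 1. No cell type without these genes was present to measure free RNA, so UMIs in cells of low level may include it, which was not tested.

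Cells were then split by the UMIs of 57 DNA replication genes, such as Pcna, the sliding clamp of DNA polymerase. Cells with at least 3 of these UMIs had more histone UMIs than cells with none in 9 of 9 libraries, by 0.86 ± 0.49 on the log2 scale (SD, n = 9), with p = 0.0039 in a 2-sided exact sign-flip permutation test, the smallest it can give. The difference was 0.46 without the 3 most abundant members, higher in 7 of 9 libraries (exact p = 0.039). That split was coarse: 60.1% to 78.1% of cells with Dox, 53.7% to 71.0% without Dox and 83.6% to 91.5% in Experiment 1 had 3 or more. In Experiment 1 the cells with none numbered 6, 7 and 11 at 0, 17 and 30 h, with 5, 3 and 14 histone UMIs in all. Its 30 h library was higher by only 1.294 against 1.273 histone UMIs per cell. The values of Experiment 1 in this split thus rest on very few comparison cells. In a split added after the data were seen, cells with 11 or more replication UMIs had 80.8, 22.2 and 14.6 histone UMIs each at 0, 19 and 30 h with Dox, against 6.15, 3.36 and 2.499 in cells with 5 or fewer. Without Dox the means were 63.1, 27.0 and 19.6 against 5.34, 3.15 and 1.81, and in Experiment 1 they were 2.37, 3.92 and 3.097 against 0.856, 1.01 and 1.02. The log2 difference was 2.68 ± 0.85 (SD, n = 9; exact p = 0.0039). The share of such cells was 4.38%, 5.84% and 5.36% with Dox, 7.49%, 6.74% and 5.13% without Dox, and 10.9%, 8.84% and 11.1% in Experiment 1, so the experiment with the fewest histone UMIs had the largest share of them.

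**Figure D4:**
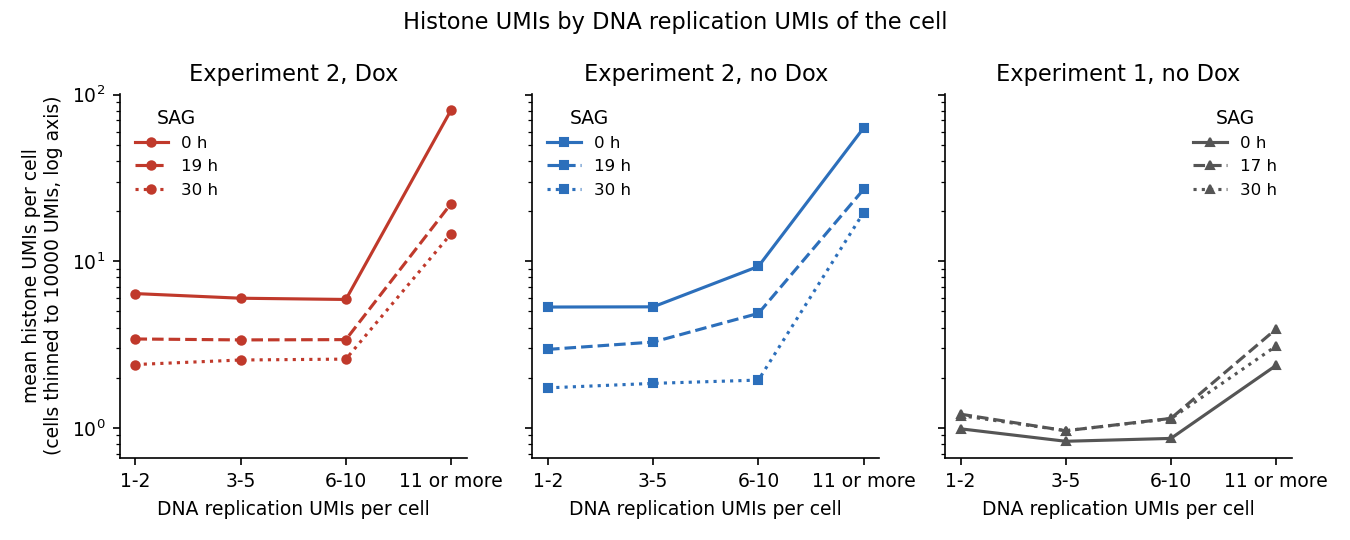
Mean histone UMIs per cell (log axis, cells thinned to 10000 UMIs) against the number of DNA replication UMIs in the cell, for each library. In every library the line is nearly flat up to 3 to 5 UMIs and highest at 11 or more, where it reaches 80.8 with Dox and 63.1 without Dox at 0 h in Experiment 2 and at most 3.92 in Experiment 1.

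Both groups of cells fell with SAG time in Experiment 2. From the values above, cells with 11 or more replication UMIs and cells with 5 or fewer each had fewer histone UMIs at 30 h than at 0 h, in both arms. Their medians fell as well: 72, 6 and 2.5 UMIs at 0, 19 and 30 h with Dox and 50, 21 and 8 UMIs without Dox in cells with 11 or more, against 5, 3 and 2 with Dox and 5, 3 and 1 without Dox in cells with 5 or fewer. Cells with many replication UMIs also differed by the UMIs of 46 mitosis genes. Those that also had 11 or more mitosis UMIs held 114, 32.6 and 20.6 histone UMIs with Dox and 82.3, 35.0 and 24.1 without Dox. Those with 5 or fewer mitosis UMIs held 3.16 at 19 h with Dox and 8.93 and 6.81 at 0 and 19 h without Dox; the other libraries of Experiment 2 had under 20 such cells. Cells with at least 3 mitosis UMIs had more histone UMIs than cells with none by 1.22 ± 0.65 on the log2 scale in 9 of 9 libraries (SD, n = 9; exact p = 0.0039). Cells with more UMIs of both lists may include doublets, which were not called here, and their part was not tested.

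Members differed widely in their fold between cells with many and with few replication UMIs, a split that uses those UMIs alone and does not isolate cells in DNA synthesis. The H1 gene Hist1h1b had 8.52, 2.10 and 1.15 UMIs per cell at 0, 19 and 30 h with Dox in cells with 11 or more replication UMIs, against 0.0552, 0.0271 and 0.0118 in cells with 5 or fewer, a median of 101.5-fold over the 6 libraries of Experiment 2. Hist1h3b (197-fold in the 4 libraries where it could be computed), Hist1h3c (134-fold in 5), Hist1h1a (111-fold), Hist1h2ap (33.9-fold), Hist1h2ab (28.4-fold), Hist1h2ae (19.5-fold) and Hist1h3f (12.8-fold) were also over 10-fold. Hist2h2bb (7.87-fold), Hist1h3e (7.16-fold), Hist1h4d (4.63-fold), Hist1h1e (4.03-fold) and Hist1h4h (3.46-fold) were intermediate, and Hist1h4i (1.52-fold), Hist1h1c (1.51-fold) and Hist2h2aa1 (1.18-fold) were little higher. Hist1h2bc and Hist3h2a were lower in cells with many replication UMIs. Hist1h2bc had 0.31, 0.257 and 0.0732 UMIs per cell with Dox in such cells against 0.687, 0.606 and 0.613 in the others, and its fold was under 1 in 9 of 9 libraries, with a median of 0.438 in Experiment 2. Hist3h2a was at 0.37-fold in Experiment 2 and under 1 in all 8 libraries with a value. Hist2h3c1 had 0 UMIs over all libraries in cells with 11 or more replication UMIs and 121 in cells with 5 or fewer. The first group is far smaller, for example 199 against 2230 cells at 0 h in Experiment 2 without Dox, so these sums are not levels per cell.

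**Figure D5:**
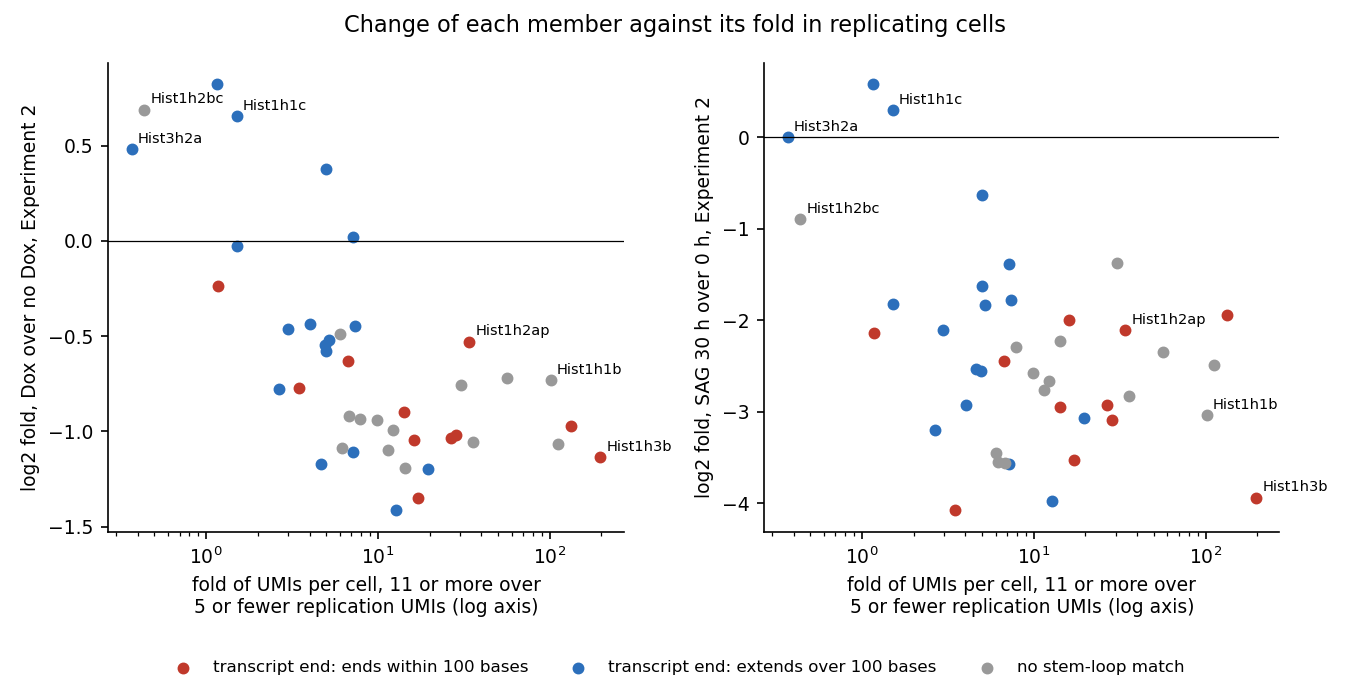
Log2 change of each member in Experiment 2, Dox over no Dox (left) and SAG 30 h over 0 h (right), against its fold of UMIs per cell in cells with 11 or more over cells with 5 or fewer DNA replication UMIs (log axis); colours give the annotated 3′ end. By their medians, members with a fold under 2 lie higher in both panels than those over 10-fold, at 0.57 against -1.04 for Dox and -0.45 against -2.80 for SAG. Single members of the 2 groups overlap for SAG, such as Hist2h2aa1 (1.18-fold) at -2.14 and Hist1h2ak (30.5-fold) at -1.38.

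Members with a low fold by this split had, by their medians, the smaller fall with SAG and the higher level with Dox. Among 42 members with at least 50 thinned UMIs and a fold, the 6 with a fold under 2 had a median log2 change of -0.45 with SAG at 30 h, 0.57 with Dox and 1.74 in Experiment 2 over Experiment 1. The 18 over 10-fold had medians of -2.80, -1.04 and 2.97. Across these 42 members, which share libraries and are not independent, Spearman's rho of the fold was -0.33 with the change at 30 h of SAG, -0.62 with the change with Dox and 0.36 with the difference between experiments, and Pearson's r of the log2 fold was -0.47, -0.68 and 0.43. By annotated 3′ end, members ending within 100 bases of the stem-loop had a median fold of 17.1 by this split. Those running on for over 100 bases had one of 4.93, and those with no stem-loop match one of 11.9. With Dox, 16 of 18 tested members of the first kind were lower and none higher, and of the second kind 12 of 20 were lower and 4 higher. Of those with no match, 16 of 18 were lower and 1 higher. These counts stand against 18.4% lower and 18.6% higher of all genes, and differences between the kinds were not tested.

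Genes outside the family that act on it were called in both directions. Of 20 genes for making, processing or decaying histone mRNA, none was called at 30 h of SAG with both experiments, against 0.446% of all genes. At unadjusted p under 0.05, 2 of the 20 passed, beside 1483 of 14354 genes. At 30 h in Experiment 2, 7 of these were higher and 4 lower, against 24.3% and 23% of all genes, with a median of 0.10. With Dox 5 were higher and 3 lower, against 18.6% and 18.4% of all genes, with a median of 0.11. Among them Lsm11, part of the U7 particle that cuts histone pre-mRNA, fell, with 5.11, 4.66 and 4.86 CPM at 0, 19 and 30 h with Dox against 8.79, 8.74 and 7.40 CPM without (-0.77 ± 0.12, SE; edgeR adjusted p = 2e-06), and Upf1, a helicase that acts in the decay of histone mRNA, rose, with 12.5, 26.8 and 26.9 CPM with Dox against 9.28, 18.5 and 15.7 CPM without. Slbp itself, also lower with Dox (-0.27 ± 0.11, SE; edgeR adjusted p = 0.047), had 23.5, 23.3 and 25.4 CPM with Dox, 28.5, 29.7 and 28.9 CPM without Dox and 39.9, 36.5 and 33.1 CPM in Experiment 1. Of the replacement histones, which are made outside DNA synthesis from polyadenylated mRNA, 6 of 11 tested were lower and 1 higher at 30 h in Experiment 2, against 23% and 24.3% of all genes. H2afz, the H2A variant gene, fell with SAG, with 481, 242 and 227 CPM with Dox and 694, 479 and 274 CPM without Dox, against 509, 483 and 455 CPM in Experiment 1. H2afj was higher in Experiment 2 than in Experiment 1 by 1.79 ± 0.27 (SE; edgeR adjusted p = 6.5e-05). Of 15 histone chaperones, 5 were higher and 2 lower at 30 h in Experiment 2, against 24.3% and 23% of all genes.

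The replication and mitosis genes did not move with the histone genes to the same extent. The 57 DNA replication genes summed to 533, 495 and 527 CPM at 0, 19 and 30 h with Dox, 703, 609 and 539 CPM without Dox, and 678, 657 and 680 CPM in Experiment 1. Pcna alone had 24.9, 21.5 and 23.9 CPM with Dox, 35.0, 26.3 and 24.4 CPM without Dox, and 6.11, 5.77 and 4.68 CPM in Experiment 1, so Pcna made up a smaller part of the list's UMIs in Experiment 1. The 46 mitosis genes summed to 515, 485 and 498 CPM with Dox, 804, 673 and 599 CPM without Dox, and 1017, 1113 and 1318 CPM in Experiment 1. With SAG at 30 h in Experiment 2, 16 of 57 replication genes were lower and 8 higher, against 23% and 24.3% of all genes, with a median of -0.13, beside -2.51 for the histone genes. With Dox 18 replication genes were lower and 1 higher, and 35 of 46 mitosis genes were lower and 1 higher, against 18.4% and 18.6% of all genes, with a median of -0.55 for mitosis. Between experiments 8 replication genes were lower and 3 higher in Experiment 2, and 30 mitosis genes were lower and none higher, against 19.9% and 20.6% of all genes. Their part in the histone differences was not tested.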

How the data were processed

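The authors deposited raw UMI counts for each barcode and gene, with no normalization. Per the submitters' processing notes this was Cell Ranger with mm10; per the file headers the software was version 3.1.0 in Experiment 1 (31054 features) and 6.0.1 in Experiment 2 (32286 features). Genes were joined by ID, and IDs found in 1 experiment alone carried 0.0701% to 0.832% of UMIs. The mitochondrial limit removed 25.9% to 46.3% of barcodes with at least 5000 UMIs.

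Counts of kept cells were summed per library and tested with edgeR 4.0.16 (filterByExpr, TMM, quasi-likelihood F test, Benjamini-Hochberg over all genes tested) in R 4.3.3; each fit had 2 residual degrees of freedom, and the spread is shared across genes. An SE is the size of the log2 change over the root of its F statistic. Single libraries were compared on log2 CPM (prior count 2). The tests were checked on simulated data. DESeq2 1.42.0 was the other tool. Whether cultures were separate is not labelled, so the p-values reflect variation among these libraries alone, possibly technical. The experiment number marks a shared experiment in the labels; deviations of the experiments from the mean of a time correlated between times at 0.75 to 0.87 over 6931 genes, so the experiment was kept as a block.

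The members, gene lists, fits and the split at 11 UMIs were chosen with earlier results of these data known. Named by rule were the 3 members of highest mean CPM per class and those called; of the 55 members called in some comparison most are given as counts. Cells were thinned with Python 3.11.15 (numpy 2.4.6); doublets were not called. Sequences are from GENCODE vM21 transcripts and RefSeq promoters.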

Additional observations from a re-analysis of the deposited data

Results flagged for a closer look

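The change at 30 h of SAG had one sign in Experiment 1 and the other in both arms of Experiment 2 for many values, so that their mean change in Experiment 2 minus that in Experiment 1 stood out; this rests on 1 library per time and arm, and the difference was not tested. For the sums it was -2.60 on the log2 scale for all members, -2.73 for H1, -2.64 for H2A, -3.02 for H3 and -3.59 for H4. For single members it was -3.82 for Hist1h1e, -3.90 for Hist1h1b, -2.97 for Hist1h2ap, -3.92 for Hist1h2ae, -2.90 for Hist2h2aa1, -2.80 for Hist2h2bb, -3.97 for Hist1h3e, -4.78 for Hist1h3f, -3.44 for Hist1h4d, -4.88 for Hist1h4h and -2.08 for Hist1h4i. Hist1h1c went the other way, at 0.61. The H2B sum changed by -0.995 with Dox and -1.90 without Dox in Experiment 2 and by -0.04 in Experiment 1, where its counting intervals at 30 h and 0 h overlapped. Those of the H3 sum in Experiment 1 also overlapped, with 3.92 to 5.39 CPM at 0 h and 4.55 to 6.39 CPM at 30 h. The sign of the H3 change there is thus not clear of counting error. Hist1h3f had 6 UMIs at 0 h and 9 at 30 h in Experiment 1, and Hist1h3e had 22 and 23.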

How the results depend on the processing

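The number of members called at 30 h over 0 h without Dox was 10 and became 1 with DESeq2, 5 with DESeq2 size factors, 30 with no filter on low counts, 0 with no replicate block and 23 with no mitochondrial limit, and 0 to 48 when 1 library was left out. At 17 to 19 h over 0 h it was 0, and 0 to 23 with 1 library left out. At 30 h over 17 to 19 h it was 1, and became 0 with DESeq2, with size factors, by total UMIs, with no replicate block and with at least 10000 UMIs per barcode, 6 with no filter and 5 with no mitochondrial limit, and 0 to 22 with 1 library left out. For the 30 h response with Dox minus without it was 0, and 0 to 15 with 1 library left out. For Dox it was 49 and became 0 without SAG time as the block; for 30 h and 19 h over 0 h in Experiment 2 it was 51 and 48 and became 3 and 0 without the block. The range with 1 library left out was 36 to 50 for Dox, 39 to 47 for Experiment 2 over 1, 45 to 53 for 30 h and 29 to 47 for 19 h in Experiment 2. With 1 library left out, Hist1h4h at 30 h over 0 h ranged from -3.975 to 0.21 and Hist1h4c from -3.21 to 0.20; both were positive without the 0 h library of Experiment 2 without Dox, and Hist1h4c was 0.17 without the 30 h one. The cause was not tested. The difference between cells with and without replication UMIs ranged from 0.76 to 0.96, and that for mitosis UMIs from 1.09 to 1.32, with 1 library left out. Members below 1 CPM in Experiment 1 rest on few UMIs, which limits their fold changes. The number of all genes called moved with these settings too. For 30 h over 0 h without Dox it was 64 in the main fit, 12 with DESeq2 and 30 with DESeq2 size factors. It was 210 with no filter, 0 with no replicate block and 261 with no mitochondrial limit. Without the block it was 177 for Dox and 58 and 1 for 30 h and 19 h in Experiment 2. For fits with 1 library left out it is not given here.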
